A study of Saccharomyces cerevisiae with 10 samples.

Results

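The comparison described here is between diploid budding yeast (Saccharomyces cerevisiae) lacking both copies of the SET3 gene and naive diploids, which carry neither a deletion of the complex nor the state [ESI+] described below. It rests on 4 of the 10 mRNA sequencing libraries of the series, 2 of the set3 deletion and 2 of naive cells, chosen by their genotype labels. All strains are in the BY4743 background, a laboratory diploid that carries auxotrophic marker deletions, and all cells were grown to mid-log phase in YPD, a rich glucose medium. The deletions are homozygous. The labels do not say how they were made or whether the 2 libraries of a group came from separate cultures or clones, so the p-values below measure only the spread between these libraries, which may be technical. The other groups are homozygous hos2 and snt1 deletions, which lack other subunits of the same complex, and cells carrying the prion-like state [ESI+], with 2 libraries each. The same fit drew its estimate of the spread from all 5 groups.

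Set3 is the subunit after which the Set3 complex is named, and it binds methylated histone H3 through a PHD finger. The complex holds the histone deacetylases Hos2 and Hst1, the scaffold protein Snt1, the WD-repeat protein Sif2, Hos4 and the cyclophilin Cpr1. It is recruited to transcribed genes, where it removes acetyl groups from histones, and in yeast it is known for delaying the induction of genes whose promoters are read through by other transcripts and for holding back sporulation genes. Glucose uptake genes, carbohydrate reserve genes and ribosome assembly genes are among the transcripts that budding yeast adjusts most between rapid growth on glucose and slower growth.

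Libraries held 27318367 and 18274386 estimated counts in naive replicates 1 and 2, and 80651761 and 8327735 in set3 replicates 1 and 2, so the second set3 library is the shallowest of the comparison. The naive pair correlated at 0.974 and the set3 pair at 0.975 across genes on the log2 scale, a description of the libraries and not a test. External RNA spike-ins took 1.43% and 3.31% of the naive counts and 3.20% and 2.71% of the set3 counts, and ribosomal RNA took 12.0% to 15.9% of all 4. Library preparation primed on poly(A) tails, and whether strand was kept is not stated, so a gene and an overlapping antisense transcript cannot be told apart. The 24 mating and haploid-specific genes summed to 60.6 and 64.1 counts-per-million (CPM) in set3 and 83.7 and 73.0 CPM in naive cells, each a small share of the library. Of the auxotrophic markers of BY4743, URA3 stood at 0.23 to 0.60 CPM and LEU2 at 0.28 to 1.56 CPM in the 4 libraries, while HIS3, whose allele in this background is a partial deletion, stood at 75.9 to 121 CPM. Of these 24 genes only RME1, which encodes a repressor of meiosis active in haploids, was called, lower in set3.

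The deleted gene itself was checked first. SET3 (chromosome XI, 497578 to 499833, minus strand) had 163 and 51 counts in the naive libraries and 2 and 0 counts in the set3 libraries. Its summed level in set3 was 0.48% of naive (95% exact interval 0.0577% to 1.75%, counting error only). In the fit it fell by 7.47 ± 0.55 on the log2 scale (standard error here and below; edgeR quasi-likelihood test with Benjamini-Hochberg adjustment over all genes, adjusted p = 7.71e-05). This difference follows from the genotype and checks the labels. Transcripts of the other subunits were not called. SNT1 stood at 34.4 and 39.3 CPM in naive and 66.6 and 67.2 CPM in set3 libraries, a difference of 0.86 ± 0.30 (adjusted p = 0.165), and HOS2 differed by 0.46 ± 0.31 (adjusted p = 0.496). Sirtuin gene HST1 differed by 0.58 ± 0.20 (adjusted p = 0.155), SIF2 by 0.08 ± 0.19, HOS4 by -0.03 ± 0.18 and CPR1 by -0.18 ± 0.33. The neighbours of SET3 on chromosome XI, BCH2, SAP190, GMH1 and SPO14, were not called either, with log2 differences from -0.23 to 0.79. Median log2 fold changes of the nuclear chromosomes lay between -0.12 on VI and 0.05 on XVI.

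Of 6390 genes tested, 160 were called at an adjusted p under 0.05, which is 2.50%. Of these, 37 were higher in set3 (0.579% of genes tested) and 123 were lower (1.92%). Before adjustment 1136 genes had a p under 0.05. The calls rest on small numbers of libraries: 54 genes were called without naive replicate 1, 32 without naive replicate 2, 7 without set3 replicate 1 and 9 without set3 replicate 2. Of the 160 calls, 5 survived all of these fits (SET3, IMD2, BNA5, YKR075C and ODC1) and 102 survived 0 of them. All 160 genes kept their sign in every one. Scaling by the spike-ins in place of the genes set the median of all genes at -0.50. It gave 3 calls, and only 1 of the 160 genes was among them, although all 160 kept their sign. The spike-in share differed within the naive pair (1.43% and 3.31%), and why the calls were lost was not tested. The changes below are scaled by the genes and are therefore relative to the bulk of transcripts. In bulk RNA, a change in every cell cannot be told apart from a change in the share of cells that express a gene.

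**Figure D1:**
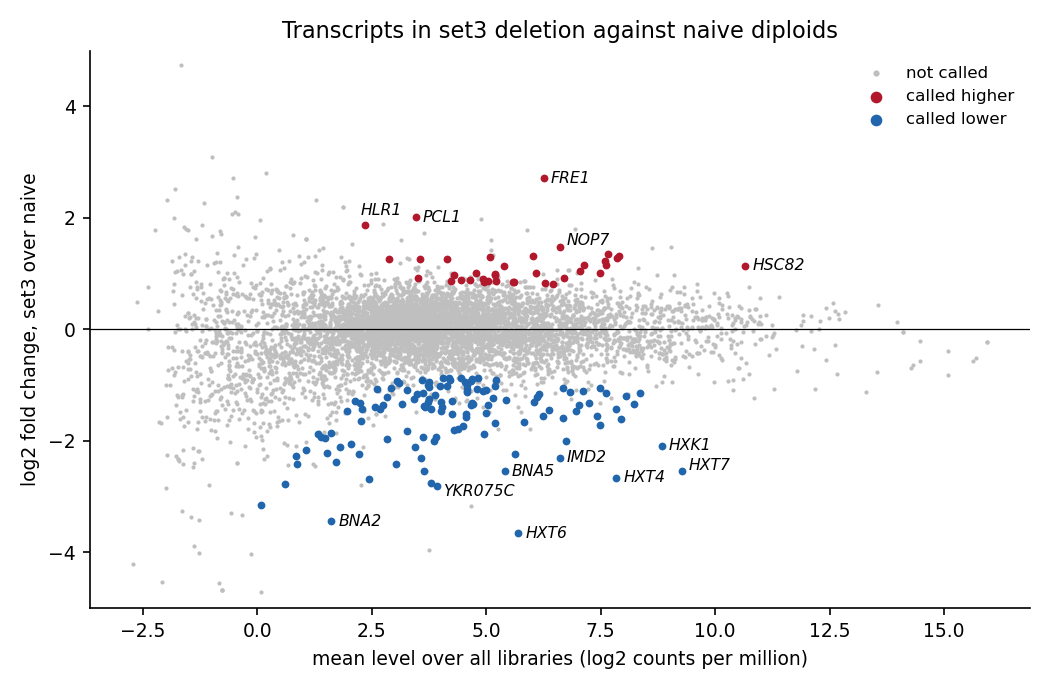
Each point is a gene, with the mean level over all 10 libraries (log2 CPM) on the horizontal axis and the log2 fold change of set3 over naive on the vertical axis; red and blue points are the genes called higher and lower. Called lower genes outnumber called higher ones, 123 to 37, and reach further from 0; SET3 and 14 other genes with a log2 fold change beyond 5 in size are not drawn.

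The gene lists below were chosen with earlier results of these data known. Their counts, given beside the share of all genes, describe the lists, and no test was run on them. Among the pathways examined, synthesis of NAD from tryptophan had the lowest median. Of the 7 BNA genes 5 were called lower and 0 higher, against a background of 1.92% lower calls, with a list median of -1.93 beside 0.004 for all genes. BNA2 encodes the dioxygenase that opens the tryptophan ring and starts the route (chromosome X, 578860 to 580221). It stood at 7.75 and 12.7 CPM in naive libraries and at 0.889 and 1.02 CPM in set3 libraries. Both set3 libraries lay well below both naive ones, and the fall was 3.44 ± 0.45 (adjusted p = 0.00278). Further along the route, after the step of the formamidase gene BNA7 given below, the kynurenine monooxygenase gene BNA4 went from 32.2 and 28.6 CPM to 8.39 and 7.37 CPM (-1.93 ± 0.23, adjusted p = 0.00148). Kynureninase, BNA5, went from 80.1 and 112 CPM to 17.0 and 15.7 CPM (-2.55 ± 0.26, adjusted p = 0.000898), with some reads shared with other targets. For each of these genes the groups did not overlap.

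Later in the route, BNA1 and BNA6 fell. BNA1, the hydroxyanthranilate dioxygenase that forms the quinolinate precursor, stood at 20.2 and 14.7 CPM in naive and 3.54 and 2.84 CPM in set3 libraries, a fall of 2.42 ± 0.45 (adjusted p = 0.0253). BNA6, the phosphoribosyltransferase that feeds quinolinate into NAD synthesis, went from 200 and 327 CPM to 115 and 94.4 CPM, a fall of 1.33 ± 0.26 (adjusted p = 0.0249). Its naive libraries were unequal, and both exceeded both set3 libraries. The formamidase gene BNA7 and the side-branch aminotransferase gene BNA3 were not called, at 0.24 and -0.02 on the log2 scale. Per length, in transcripts-per-million (TPM), BNA2 stood low, at 4.90 and 5.72 TPM in naive and 0.444 and 0.690 TPM in set3, beside 11.2 and 5.51 TPM in naive for BNA7, and the most abundant was BNA6, at 204 and 240 TPM in naive and 94.6 and 103 TPM in set3. Call by call, BNA5 held without any 1 library, BNA2 and BNA4 were lost without set3 replicate 1 (adjusted p = 0.110 and 0.0593) or set3 replicate 2 (0.0652 and 0.0572), BNA6 held only without naive replicate 1 (adjusted p = 0.0164), and BNA1 held in 0 of the 4 fits.

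Uptake of NAD precursors moved with the BNA genes in part. NRT1, the transporter of nicotinamide riboside, went from 31.3 and 45.6 CPM to 10.3 and 11.7 CPM (-1.81 ± 0.22, adjusted p = 0.00163). TNA1, the high-affinity nicotinic acid permease, went from 191 and 238 CPM to 101 and 97.7 CPM (-1.11 ± 0.25, adjusted p = 0.0383). These were the only 2 called of 9 salvage and uptake genes (2.50% of all genes were called), and both share reads with other targets. Salvage enzymes were not called: the nicotinamidase PNC1 differed by -0.32 ± 0.24 and the nicotinate phosphoribosyltransferase NPT1 by 0.53 ± 0.21. NRT1 lost its call without set3 replicate 1 (adjusted p = 0.0697), and TNA1 in each of the 4 fits.

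**Figure D2:**
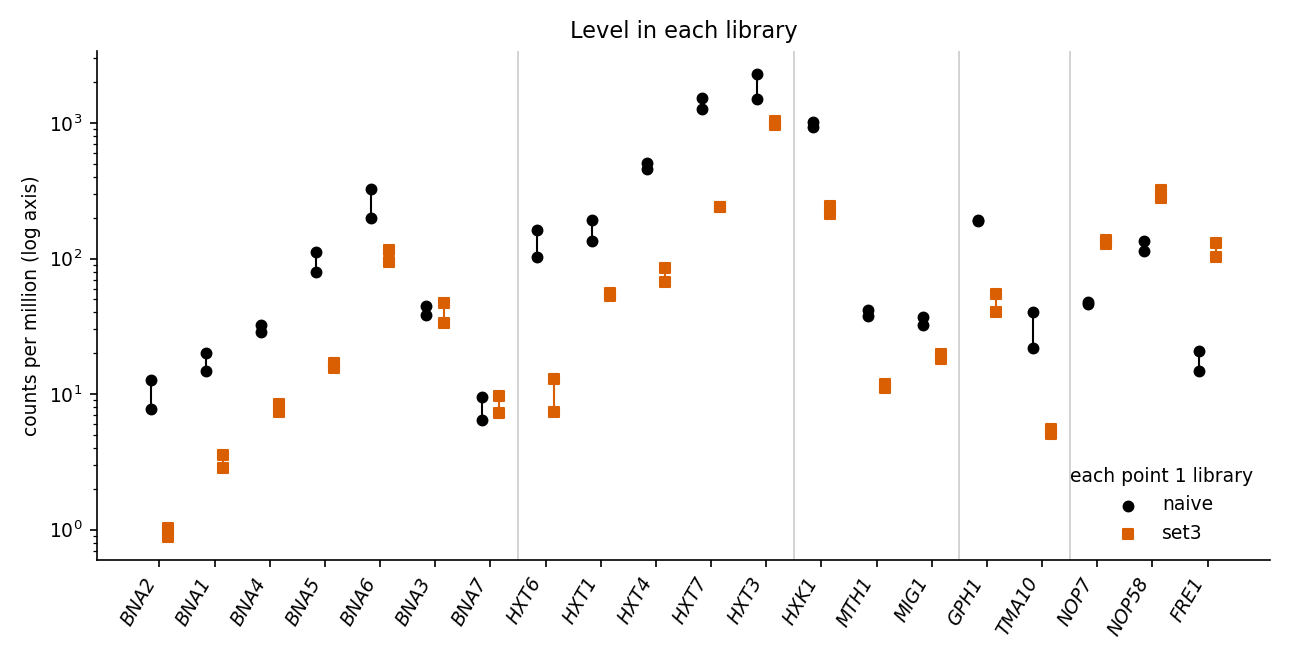
Level of 20 genes in each library (CPM, log axis), with black circles for the 2 naive and orange squares for the 2 set3 libraries, each pair joined by a line; grey lines separate BNA, hexose transport, glucose signalling, reserve or stress, and higher genes. The set3 pair lies below the naive pair for all but BNA3, BNA7, NOP7, NOP58 and FRE1, and the BNA2 pair in set3 lies near 1 CPM.

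Transcripts of hexose transporters came next. Of 15 tested, 4 were called lower (1.92% of all genes were) and 0 higher, and the list median was -1.09. For 12 of 15 both set3 libraries lay below both naive ones (24.5% of all genes did). Members of this family resemble each other closely, and all 4 called ones share reads (had an estimated count that is not whole), so reads may be split between them. HXT7, a high-affinity transporter, stood at 1270 and 1520 CPM in naive libraries and at 239 and 238 CPM in set3 libraries. Its near-identical neighbour HXT6 (chromosome IV, 1159608 to 1161320) went from 161 and 102 CPM to 12.9 and 7.37 CPM. The falls were 2.55 ± 0.34 (adjusted p = 0.00348) and 3.66 ± 0.48 (adjusted p = 0.00742). HXT4, which is induced at low glucose, fell by 2.67 ± 0.32 from 458 and 510 CPM to 84.9 and 67.4 CPM (adjusted p = 0.00148).

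Of the low-affinity transporters HXT1 and HXT3, HXT1 was called. HXT1, which is induced at high glucose, went from 134 and 193 CPM to 55.2 and 53.2 CPM, a fall of 1.59 ± 0.26 (adjusted p = 0.0109). HXT3, the most abundant of the family per length (746 and 810 TPM in naive and 375 and 546 TPM in set3 libraries), stood at 1500 and 2300 CPM in naive and 964 and 1030 CPM in set3 libraries, and its difference of -0.93 ± 0.27 was not called (adjusted p = 0.0937). HXT2 differed by -0.41 ± 0.29 (adjusted p = 0.500). HXT4, HXT6 and HXT7 kept their calls without either naive library, and their adjusted p-values were 0.0558 to 0.110 without set3 replicate 1 and 0.0652 to 0.103 without set3 replicate 2. HXT1 kept its call only without naive replicate 1 (adjusted p = 0.0164).

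Genes that read glucose and repress others were called lower in 6 of 18 cases (1.92% of all genes were), and 0 were higher. MTH1, a corepressor that holds HXT genes off with Rgt1, went from 37.8 and 41.5 CPM to 11.8 and 11 CPM (-1.79 ± 0.21, adjusted p = 0.00148). All 3 MIG repressor genes fell: MIG3 by 1.43 ± 0.27 (adjusted p = 0.0231), MIG2 by 1.01 ± 0.20 (adjusted p = 0.0260) and MIG1 by 0.88 ± 0.18 (adjusted p = 0.0266). MIG1 stood at 32.2 and 36.8 CPM in naive and 18.0 and 19.6 CPM in set3 libraries, without overlap. SNF3, the sensor of low glucose, fell by 0.91 ± 0.21 (adjusted p = 0.0455). HXK1, a hexokinase held down by high glucose, went from 934 and 1010 CPM to 244 and 212 CPM, a fall of 2.09 ± 0.41 (adjusted p = 0.0266). The other 12, among them the kinase gene SNF1 (-0.15 ± 0.22), the high-glucose sensor gene RGT2 (-0.06 ± 0.20), RGT1 (-0.03 ± 0.25) and HXK2 (0.10 ± 0.27), were not called, and the list median was -0.10. Of the 6 calls, 3 held without naive replicate 1, 1 without naive replicate 2 (MTH1, adjusted p = 0.0183), and 0 without either set3 library.

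Reserve carbohydrate genes followed the same direction where called. GPH1, glycogen phosphorylase, went from 189 and 192 CPM to 54.3 and 40.2 CPM (-2.01 ± 0.29, adjusted p = 0.00602). GDB1, the debranching enzyme, fell by 1.57 ± 0.21 (adjusted p = 0.00407), GLC3, the branching enzyme, by 1.36 ± 0.27 (adjusted p = 0.0253) and GAC1, a phosphatase subunit that activates glycogen synthase, by 1.18 ± 0.28 (adjusted p = 0.0493). Thus 4 of 20 genes of glycogen and trehalose metabolism were lower (1.92% of all genes were) and 0 were higher, with a list median of -0.40. Both synthesis and breakdown enzymes were among the 4. GPH1 and GDB1 kept their calls without either naive library, GAC1 without naive replicate 2 only, and GLC3 in 0 of the 4 fits.

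General stress genes, which the activators Msn2 and Msn4 switch on in slow growth, were called lower in 7 of 32 cases (1.92% of all genes were), with a list median of -1.0. Both set3 libraries lay below both naive ones for 29 of 32, a pattern that 24.5% of all genes had. TMA10, a ribosome-associated protein, went from 40.6 and 22 CPM to 5.54 and 5.10 CPM (-2.55 ± 0.47, adjusted p = 0.0266). The small heat shock gene HSP26 went from 16.1 and 13.9 CPM to 4.79 and 2.38 CPM (-1.96 ± 0.42, adjusted p = 0.0375). SPI1, a cell wall protein, fell by 1.55 ± 0.24 (adjusted p = 0.00918). Of the heat shock genes, 1 of 24 was lower (HSP26), 1 was higher, and the median was 0.03 (-0.43 with spike-in scaling). The one that rose was HSC82, the constitutive Hsp90 chaperone, from 923 and 1020 CPM to 2260 and 2010 CPM (1.14 ± 0.25, adjusted p = 0.0350), a call lost whichever library was left out. Without naive replicate 1, 0 of the 7 stress calls held, and without naive replicate 2, 3 did, TMA10 and SPI1 among them (adjusted p = 0.0426 and 0.0324). Neither fit without 1 set3 library kept any.

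Respiratory genes were lower in 5 of 47 cases (1.92% of all genes were) and higher in 0, with a list median of -0.46. CYC7, a cytochrome c isoform, fell by 2.69 ± 0.43 (adjusted p = 0.0109) from 15.1 and 6.85 CPM to 1.97 and 1.25 CPM. LSC2, a succinyl-CoA ligase subunit, fell by 1.30 ± 0.22 (adjusted p = 0.0139), and SDH1, a succinate dehydrogenase subunit, by 1.13 ± 0.26 (adjusted p = 0.0436). CYC1, the main cytochrome c, and RIP1, the iron-sulphur subunit of complex III, fell by 1.03 ± 0.20 (adjusted p = 0.0253) and 1.02 ± 0.21 (adjusted p = 0.0298). Cell wall protein genes were lower in 4 of 32 cases, beside the same 1.92%: SPI1, PIR3 and the mannoproteins TIR1 and TIR3. Of the 5 respiratory and 4 wall calls, 1 and 2 held without naive replicate 1, 1 and 1 without naive replicate 2, and 0 without either set3 library. Lists of amino acid synthesis (0 of 54 called), histones (0 of 11) and silencing factors (0 of 30) had no call and medians between -0.12 and 0.07, all negative with spike-in scaling (-0.33, -0.63 and -0.43). Of sporulation genes, 0 of 23 early meiotic ones were called higher and 1 lower, with a median of -0.05. Among 36 middle and late meiotic genes, 0 were called higher and 1 lower, with a median of -0.19. Over all genes, 0.579% were called higher and 1.92% lower.

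Several single genes fell as far. IMD2, an IMP dehydrogenase that makes guanine nucleotides (chromosome VIII, 554396 to 555967), went from 208 and 261 CPM to 46.1 and 48.9 CPM, a fall of 2.31 ± 0.21 (adjusted p = 0.000484). Its paralogs were not called, IMD3 at -0.39 ± 0.30 and IMD4 at 0.98 ± 0.25 (adjusted p = 0.0590), and IMD2 shares reads with other targets. YKR075C, uncharacterised (chromosome XI, 579827 to 580750), went from 43.1 and 35.4 CPM to 6.96 and 3.52 CPM, a fall of 2.82 ± 0.30 (adjusted p = 0.00132). Both calls survived the loss of any 1 library. ODC1, a mitochondrial carrier of oxodicarboxylates, which was picked after its values were seen because its call survived likewise, fell by 2.12 ± 0.24 (adjusted p = 0.00136) from 17.9 and 26.4 CPM to 5.46 and 4.54 CPM.

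Upstream sequence of genes called lower was searched for letters known from glucose and stress regulation. The window ran from 500 to 101 bases before the coding start, on both strands, in 5781 tested genes of the R64 genome. The stress response element AGGGG, bound by Msn2 and Msn4, was in 70 of 117 windows of genes called lower (59.8%), in 7 of 35 of genes called higher (20%) and in 29.4% of all windows. CCCCGC, core letters of the Mig1 site, was in 23 of 117 (19.7%), 1 of 35 (2.86%) and 5.35%. CGGANNA, the letters bound by Rgt1, was in 53 of 117 (45.3%), 11 of 35 (31.4%) and 37.5%. None of these motifs contains another, although matches of different motifs can overlap by some bases, and a match describes letters and not a bound site. No test was run on these shares. Stretches cut from the windows of 5 genes in the paragraphs above are shown, with every match of the 3 motifs within the stretch in capitals. All 5 genes hold matches, which other genes called lower may lack. The windows of ODC1, BNA2 and NRT1 hold none of the 3 motifs, and those of IMD2 and BNA5 hold the Rgt1 letters only. In these stretches AGGGG or CCCCT is in all but HXT4, CCCCGC or GCGGGG in YKR075C, HXT4 and TMA10, and CGGANNA or TNNTCCG in YKR075C, HXT4 and HSP26. The full window of GPH1 also holds CGGANNA or TNNTCCG, outside the stretch shown. The stretches were read from the R64 RefSeq genome at chrXI:581031-581250 on the minus strand (YKR075C), chrVIII:289092-289311 on the minus strand (HXT4), chrXII:783718-783847 on the minus strand (TMA10), chrXVI:860926-861005 on the plus strand (GPH1) and chrII:381530-381719 on the plus strand (HSP26), 5′ to 3′ along the gene.
YKR075C: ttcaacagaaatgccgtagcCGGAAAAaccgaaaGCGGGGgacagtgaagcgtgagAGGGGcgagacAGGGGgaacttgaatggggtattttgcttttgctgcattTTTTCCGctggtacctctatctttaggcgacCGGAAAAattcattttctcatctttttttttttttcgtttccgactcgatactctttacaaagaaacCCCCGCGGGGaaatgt
HXT4: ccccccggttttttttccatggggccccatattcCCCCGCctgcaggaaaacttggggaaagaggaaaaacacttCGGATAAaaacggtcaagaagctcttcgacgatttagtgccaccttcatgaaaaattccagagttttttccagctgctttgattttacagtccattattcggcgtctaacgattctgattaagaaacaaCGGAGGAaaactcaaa
TMA10: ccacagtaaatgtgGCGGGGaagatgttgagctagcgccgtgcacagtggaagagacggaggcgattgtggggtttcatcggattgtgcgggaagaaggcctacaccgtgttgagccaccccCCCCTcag
GPH1: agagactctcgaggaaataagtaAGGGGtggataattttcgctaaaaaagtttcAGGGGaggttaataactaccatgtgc
HSP26: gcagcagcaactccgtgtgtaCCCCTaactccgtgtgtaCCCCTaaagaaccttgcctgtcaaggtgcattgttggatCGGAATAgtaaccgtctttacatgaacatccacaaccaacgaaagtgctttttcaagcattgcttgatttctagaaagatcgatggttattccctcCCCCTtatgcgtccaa
In the stretches shown, YKR075C holds matches of all 3 motifs and HXT4 holds Mig1 and Rgt1 letters but no stress element. The GPH1 stretch holds stress elements, and that of HSP26 holds stress elements and 1 match of the Rgt1 letters.

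In the other direction, some ribosome assembly genes rose. Of 50 ribosome biogenesis genes 6 were called higher and 0 lower, against 0.579% of all genes higher, and 44 did not pass the test. The list median was 0.64 (0.12 with spike-in scaling, which is 0.62 above the median of all genes), and 39 of 50 had both set3 libraries above both naive ones (24.5% of all genes did). NOP7, a large-subunit assembly factor (chromosome VII, 695417 to 697234), went from 47.6 and 46.2 CPM to 136 and 127 CPM (1.49 ± 0.22, adjusted p = 0.00742). NOP56 and NOP58, core proteins of the particles that methylate ribosomal RNA, rose by 1.36 ± 0.26 (adjusted p = 0.0221) and 1.28 ± 0.23 (adjusted p = 0.0180), and both share reads. UTP20, UTP22 and NOP14, of the small-subunit processome, rose by 1.14 ± 0.21 (adjusted p = 0.0205), 0.86 ± 0.18 (adjusted p = 0.0335) and 0.91 ± 0.21 (adjusted p = 0.0455). REA1, an ATPase that frees assembly factors from the pre-large subunit and is outside that list, rose by 1.32 ± 0.26 (adjusted p = 0.0260) from 123 and 148 CPM to 348 and 326 CPM. For each of these 7 genes the groups did not overlap.

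Of 138 ribosomal protein genes, which encode parts of the finished ribosome, 0 were called. Of these, 107 had a value above 0 and 31 below. Both set3 libraries lay above both naive ones for 23 and below both for 4, and each pattern was found in 24.5% of all genes. The difference from the assembly genes was not tested. Their median was 0.31 with the length trend described below removed, and the median of 0.19 in the fit used here was -0.25 with spike-in scaling, which is 0.25 above the median of all genes. Without naive replicate 1, 2 of the 6 assembly calls held, NOP7 (adjusted p = 0.0462) and UTP20 (adjusted p = 0.0434), and 0 held in each of the other 3 fits. The genes called higher were long, with a median coding length of 2061 bases beside 1128 for all tested and 1005 for those called lower. Median log2 fold changes went from -0.17 in the shortest of 6 length classes to 0.20 in the longest. Libraries of 1 group also differed with length. From the shortest class to the longest, the median of replicate 1 minus replicate 2 went from 0.18 to -0.22 in set3 and from 0.17 to -0.03 in naive. With the trend with coding length removed, an alternative chosen after seeing the data, the ribosome biogenesis list had 6 genes called higher and a median of 0.59. These were not the same 6 genes, because members not called before replaced UTP20 and UTP22. The calls of UTP20 (0.81, adjusted p = 0.0867), UTP22 (0.66, adjusted p = 0.0906) and REA1 (0.90, adjusted p = 0.0761) were lost. Those of NOP7 (1.48, adjusted p = 0.00716), NOP56 (1.41, 0.0168), NOP58 (1.32, 0.0168) and NOP14 (0.81, 0.0417) were kept. Of the 160 calls, 113 were kept in that fit. Genes called lower were then 4 in place of 7 on the general stress list and 3 in place of 4 for glycogen and trehalose. They were 4 in place of 5 for respiration, 1 in place of 2 for NAD salvage, and 0 in place of 1 for heat shock and for mating genes. BNA genes (5), hexose transporters (4), glucose sensing (6) and cell wall (4) had the same counts. The part of transcript length in the other results was not tested beyond this fit.

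Upstream windows were also searched for 2 motifs known from ribosome biogenesis promoters, on both strands. The PAC motif GCGATGAG was in 7 of 35 windows of genes called higher (20%), in 0 of 117 of genes called lower and in 3.81% of all windows. AAAATTTT, the core of the RRPE motif, was in 14 of 35 (40%), 10 of 117 (8.55%) and 10.6%. Of the 50 ribosome biogenesis genes, called or not, 20 hold PAC (40%) and 41 hold AAAATTTT (82%), and the members of that list were not chosen on these motifs. Of the 7 called genes with PAC, NOP7 and NOP14 belong to the list, while UTP22, a called member, holds neither motif. No test was run on these shares either. Stretches cut from the windows of 4 genes with both motifs are shown with GCGATGAG or CTCATCGC and AAAATTTT in capitals, from chrVII:695217-695316 on the plus strand (NOP7), chrXII:363879-363978 on the minus strand (REA1), chrIV:190707-190806 on the minus strand (NOP14) and chrXIV:413459-413538 on the plus strand (DBP2), in the same build and direction.
NOP7: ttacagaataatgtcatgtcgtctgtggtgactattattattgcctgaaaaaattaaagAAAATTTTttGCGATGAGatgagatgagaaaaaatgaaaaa
REA1: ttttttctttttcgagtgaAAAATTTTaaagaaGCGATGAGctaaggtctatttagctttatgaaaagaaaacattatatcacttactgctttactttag
NOP14: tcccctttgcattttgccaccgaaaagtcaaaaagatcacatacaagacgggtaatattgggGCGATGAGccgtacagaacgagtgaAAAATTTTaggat
DBP2: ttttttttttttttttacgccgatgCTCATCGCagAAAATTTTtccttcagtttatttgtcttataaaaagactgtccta
Between the motifs lie 2 bases in NOP7 and DBP2, 6 in REA1 and 17 in NOP14. DBP2, an RNA helicase gene, rose by 1.16 ± 0.23 (adjusted p = 0.0266) from 102 and 112 CPM to 214 and 263 CPM, and its call was lost whichever library was left out.

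**Figure D3:**
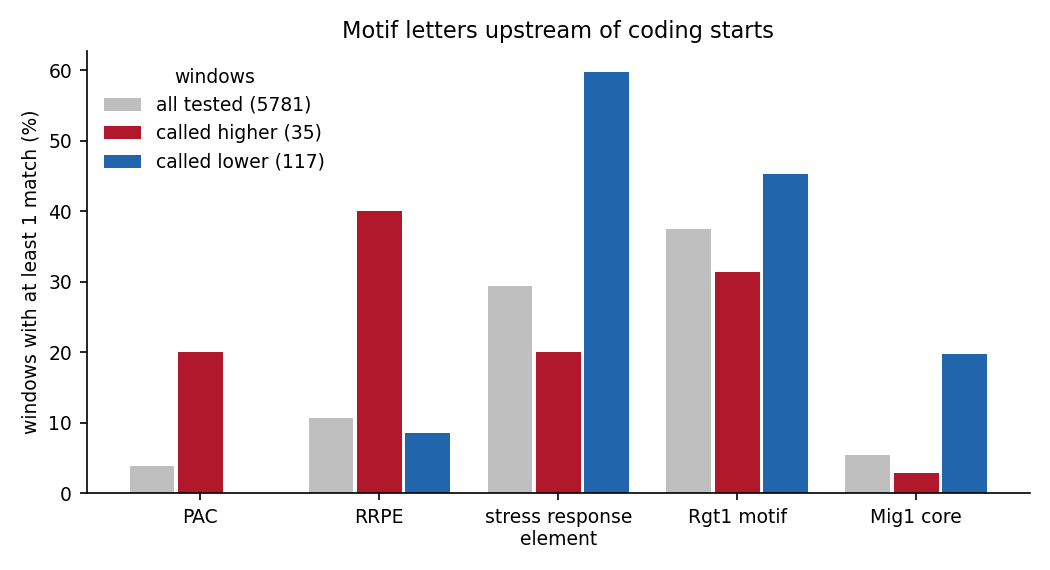
Share of upstream windows (%) with at least 1 match to each of 5 motifs on either strand, for all 5781 tested windows (grey), the 35 of genes called higher (red) and the 117 of genes called lower (blue). PAC is in 20% of windows of genes called higher and in 0 of those called lower, and the stress response element is in 59.8% of those called lower.

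The most raised single genes belong to other functions. FRE1, a plasma membrane reductase of iron and copper, went from 14.9 and 20.7 CPM to 102 and 130 CPM, a rise of 2.71 ± 0.49 (adjusted p = 0.0266). It was the only one called of 27 iron uptake genes (2.50% of all genes were called), whose median was -0.03. The ferroxidase gene FET3 differed by 0.26 ± 0.25 and the mannoprotein gene FIT2 by 1.99 ± 0.82 (adjusted p = 0.279). PCL1, a cyclin of the Pho85 kinase, went from 3.88 and 6.0 CPM to 20.4 and 18.5 CPM (2.01 ± 0.36, adjusted p = 0.0180), and the G1 cyclin CLN1 went from 11.7 and 9.97 CPM to 26.9 and 24.8 CPM (1.26 ± 0.20, adjusted p = 0.00870). HLR1 rose by 1.88 ± 0.34 (adjusted p = 0.0179). FRE1, PCL1 and HLR1 lost their calls whichever library was left out, and CLN1 in all but the fit without naive replicate 1 (adjusted p = 0.0402).

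Genes near chromosome ends had medians below 0. Of 194 tested genes within 20 kb of an end, 8 were called lower (1.92% of all genes were) and 1 higher, with a median of -0.49. Both set3 libraries lay below both naive ones for 94 of them, a pattern that 24.5% of all genes had. Those lower included IMD2, PHO11, an acid phosphatase gene that shares reads (-1.67 ± 0.25, adjusted p = 0.00742), the protease gene YPS6 (-1.39 ± 0.22, adjusted p = 0.0104) and the maltose transporter gene MAL11 (-1.22 ± 0.24, adjusted p = 0.0253). The one higher was CHA1, a catabolic serine deaminase (1.15 ± 0.23, adjusted p = 0.0253). Of these 9 calls, 2 held without naive replicate 1, 3 without naive replicate 2, and 1, that of IMD2, without either set3 library. Within 10 kb, 5 of 83 were lower with a median of -0.69, and within 40 kb, 19 of 462 were lower and 3 higher with a median of -0.22. Called genes also lay next to each other in 6 pairs of 12 genes, all of them lower in set3, including HXT7 with HXT6, ANB1 with CYC1 and YKR075C with ECM4. Of genes called lower, 10.2% had a called neighbour, beside 5.13% of all placed genes and 0 of the 35 placed genes called higher.

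Loss of Set3 was then set against loss of the deacetylase Hos2 and of the scaffold Snt1, contrasts whose fold changes come from no naive library, although the estimate of the spread behind their p-values drew on all 10 libraries. Fits on only the 4 libraries of each contrast gave 5 and 3 calls in place of the 2 and 12 described here. Against the hos2 deletion 2 of 6390 genes were called (0.0313%), SET3 lower and HOS2 higher, the deleted genes themselves. Unadjusted, 114 genes had a p under 0.05, and DESeq2 called 11. Some uncalled differences were large: HXT7 was 1.31 ± 0.33 higher in set3 than in hos2, with 239 and 238 CPM beside 76.2 and 117 CPM (adjusted p = 1.00), and PHO11 was lower by 1.13 ± 0.25 (adjusted p = 0.679). For the BNA genes called against naive the difference between set3 and hos2 lay between -0.30 ± 0.25 (BNA5) and 0.29 ± 0.25 (BNA6), and for NOP7 it was 0.04 ± 0.22. A difference that is not called does not show that the strains are alike. Side by side against naive, with the same 2 naive libraries in each, GPH1 had -2.01 ± 0.29 in set3 and -2.75 ± 0.30 in hos2, and IMD2 had -2.31 ± 0.21 in set3, -2.33 ± 0.21 in hos2 and -2.52 ± 0.21 in snt1.

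Against the snt1 deletion 12 genes were called (0.188%), 3 higher (0.0469%) and 9 lower (0.141%) in set3. SNT1 and SET3 are the deleted genes, and the other 2 that were higher, YJL026C-A and YNL284C-B, share reads. YJL026C-A had 0 counts in both snt1 and also in both [ESI+] libraries. It had 383 and 75 counts in set3, 266 and 231 in naive and 386 and 185 in hos2 libraries. The cause of this pattern was not tested. Iron genes were 4 of the other called genes. FET3, the multicopper ferroxidase, stood at 147 and 140 CPM in set3 and 760 and 529 CPM in snt1 libraries, a difference of -2.17 ± 0.26 (adjusted p = 0.00466). Its permease partner FTR1 stood at 101 and 95.3 CPM beside 498 and 293 CPM (-2.01 ± 0.28, adjusted p = 0.0112). The mRNA decay factor gene TIS11 differed by -1.87 ± 0.26 (adjusted p = 0.0112). SIT1, a siderophore transporter named here after its values were seen, differed by -1.90 ± 0.28 (adjusted p = 0.0167). In set3 against naive none of these 4 was called (FET3 0.26 ± 0.25, FTR1 -0.12 ± 0.27, TIS11 -0.64 ± 0.26, SIT1 0.65 ± 0.28).

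For other called genes the snt1 libraries stood nearer the naive ones than the set3 libraries did. COQ21 (chromosome II, 680362 to 680562) stood at 4.90 and 5.56 CPM in set3, 15.7 and 23.0 CPM in snt1 and 17.4 and 19.3 CPM in naive libraries, with -1.90 ± 0.23 between set3 and snt1 (adjusted p = 0.00511). The mitochondrial aldehyde dehydrogenase gene ALD4 (-1.61 ± 0.25, adjusted p = 0.0188) and the stress gene HOR7 (-1.62 ± 0.25, adjusted p = 0.0189) were likewise lower in set3 than in snt1. Hexose transporters HXT4 and HXT7 had -1.55 ± 0.30 and -1.73 ± 0.33 between set3 and snt1, and neither was called (adjusted p = 0.0666 for both). FRE1 stood at 10.7 and 37.7 CPM in the snt1 libraries, and its difference of 2.27 ± 0.48 was not called (adjusted p = 0.0961). The snt1 pair was the least alike of the 5 groups, with a correlation of 0.956, and this contrast moved most with it: 727 genes were called without snt1 replicate 1, 83 without snt1 replicate 2, 2 without set3 replicate 1 and 3 without set3 replicate 2. FET3 had adjusted p = 0.127 and 0.121 in the fits without set3 replicate 1 and set3 replicate 2.

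**Figure D4:**
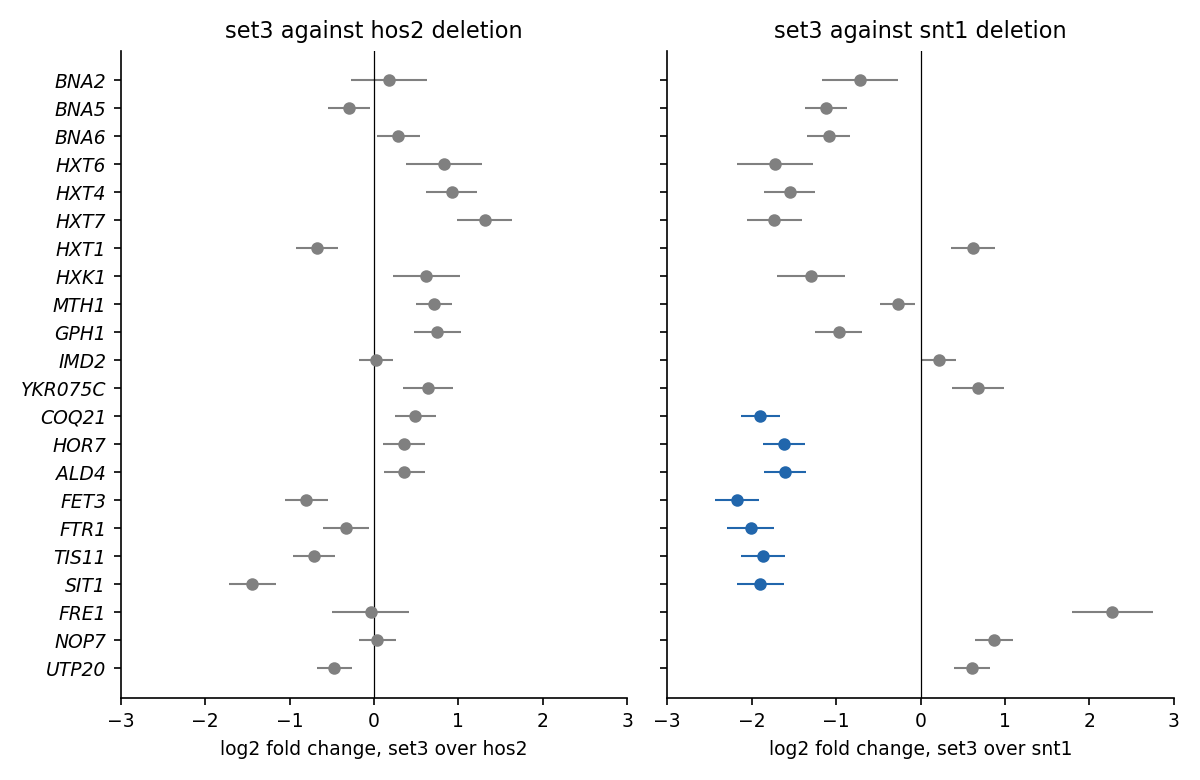
Log2 fold change of set3 over the hos2 deletion (left) and over the snt1 deletion (right) for 22 genes, with bars of 1 standard error; blue points are called lower in set3 and grey points are not called. On the left no gene drawn is called, and on the right the 7 called genes are COQ21, HOR7, ALD4, FET3, FTR1, TIS11 and SIT1.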

How the data were processed

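The deposited files hold, per library, kallisto estimated counts and TPM for each target, which the authors made with kallisto 0.44 on the R64 build, per the submitters' processing notes. TPM, also as deposited, is used for levels per length and 1 alternative. From there, estimated counts were rounded, the 92 ERCC spike-in targets were left out, and 6390 of 7126 targets passed filterByExpr over 5 groups. One quasi-likelihood fit (edgeR 4.0.16, R 4.3.3, TMM, robust, 1 coefficient per group, no block) used all 10 libraries; Benjamini-Hochberg at 0.05 ran over all genes. CPM uses TMM-scaled library totals. Of genes tested, 1391, 32 of them called, had an estimated count that was not whole (by over 0.0001) in at least 1 library: these are the genes said to share reads. Fits with DESeq2 1.42.0, limma 3.58.1 and others are alternatives. The fit was tested on simulated data.

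Genes named were drawn from SET3, its complex, its neighbours and the strain markers. Also eligible were the 15 highest and 15 lowest called genes with at least 5 CPM and groups that do not overlap. Per list, up to 4 called members were eligible, and every member of a called list of up to 9. So were 5 per direction against hos2 and snt1, and 5 near an end. Not all eligible genes are described. Left out, among others, are MUP1, snR86, ASE1, GPX2 and 21S_rRNA of the highest. Of the lowest, YFR052C-A, SPS19 and YER188W are left out. Exceptions are named as chosen after their values were seen, as were DBP2, ECM4 and ODC1 and the motifs. Members and lists were chosen with earlier results of these data known. Of list genes, 3 matched no target.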

Additional observations from a re-analysis of the deposited data

How the results depend on the processing

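Of set3 against naive, the count of 160 calls (37 higher, 123 lower) was 142, 176, 156, 153, 179 and 133 with RLE size factors, a floor of 10 CPM, no filter, thinning to the smallest total, without genes of shared reads and with the length trend removed. It was 390 with DESeq2 (142 higher), 555 with only the 4 libraries (201 higher), 92 without the [ESI+] group, 35 with limma on log2(TPM + 1), 22 when tested against a fold of 1.5 (0 higher), and 3 with spike-in library sizes (2 higher, 1 lower). Leaving out 1 library gave 7 to 54. With the replicate number as a block it was 403 (146 higher), but the labels do not tie the numbers to a shared batch, and deviations of same-numbered libraries correlated at 0.0444 for naive with set3, 0.117 for hos2 with set3, 0.102 for set3 with snt1 and from -0.0728 to 0.346 over all 10 pairs of groups, so the numbers were not taken to pair libraries. The 160 genes kept their sign under each of these that gave a value, and 36 of 39 list medians moved by more than the spread between replicates with spike-in sizes. Set3 against hos2 had 2 calls, 11 with DESeq2, 0 with limma, 0 at 10 CPM (which removes both deleted genes), 5 with only the 4 libraries and 5 with the replicate block. Set3 against snt1 had 12 calls, 286 with DESeq2, 5 with limma, 30 at 10 CPM, 3 with only the 4 libraries, 159 with the replicate block, 4 with spike-in sizes, 7 against a fold of 1.5, 36 without genes of shared reads, and 2 to 727 when 1 library was left out. The cause of these moves was not tested. With 2 libraries a group and 8327735 counts in set3 replicate 2, small changes in weakly expressed genes may not have been detectable at this depth, although large ones were called in some (DIA3, with 55 and 17 naive and 12 and 2 set3 counts).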

Other observations

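Some of the remaining calls belong to groups that were put together after their values were seen, so their counts describe and support nothing. Genes induced when oxygen is scarce were lower in 5 of 14 cases (1.92% of all genes were), with a median log2 fold change of -0.99 and 0 higher. ANB1, a translation factor isoform used without oxygen, stood at 25.1 and 28.8 CPM in naive and 5.38 and 5.56 CPM in set3 libraries (-2.30 ± 0.43, edgeR adjusted p = 0.0260), with shared reads. HEM13, a haem synthesis enzyme, went from 241 and 357 CPM to 95.9 and 108 CPM (-1.55 ± 0.26, adjusted p = 0.0117). CYC7, TIR1 and TIR3 are the other called members, and the repressor gene ROX1 itself differed by -0.07 ± 0.24.

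The glycine cleavage enzymes GCV2 and GCV3 were lower, by -1.72 ± 0.35 (edgeR adjusted p = 0.0298) and -1.61 ± 0.29 (adjusted p = 0.0173), while GCV1 (-0.69 ± 0.30) and the shared subunit LPD1 (-0.27 ± 0.22) were not called. GCV3 stood at 429 and 621 CPM in naive and 182 and 162 CPM in set3 libraries. Of the carnitine genes, AGP2, a plasma membrane regulator of carnitine uptake, fell by 1.73 ± 0.20 (adjusted p = 0.00148), and the acetyltransferase gene YAT1 fell by 2.00 ± 0.39 (adjusted p = 0.0280). RNA polymerase I genes had a median of 0.72 with 1 of 7 called, beside 2.50% of all genes. That gene was RPA190, the largest subunit (1.01 ± 0.21, adjusted p = 0.0286), which had an adjusted p of 0.0846 once the trend with coding length was taken out.

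MSN4, an activator of general stress genes, was itself lower, at 46.9 and 43.7 CPM in naive and 21.6 and 20.5 CPM in set3 libraries (-1.10 ± 0.24, edgeR adjusted p = 0.0337). ARO10, a decarboxylase of aromatic amino acid breakdown, went from 84.9 and 109 CPM to 17.5 and 23.8 CPM (-2.24 ± 0.37, adjusted p = 0.0147). The mitochondrial pyruvate carrier gene MPC3 fell by 1.88 ± 0.39 (adjusted p = 0.0303). For these 3 genes both set3 libraries lay below both naive ones. Of the 160 called genes, 80 belong to no list and lie further than 40 kb from a chromosome end, 23 of them higher and 57 lower. None of the calls named in these paragraphs survived the loss of each of the 4 libraries in turn. That of AGP2 was lost only without set3 replicate 1 (adjusted p = 0.0610).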
